A study of Mus musculus with 8 samples.

Results

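The genes of 10 actin-binding proteins were followed between 2 fractions of mouse bone marrow stem and progenitor cells: fascin (Fscn1), the calponins Cnn2 and Cnn3, the plastins Pls3 and Lcp1, the α-actinins Actn1 and Actn4, the tropomyosin Tpm4, the actin-polymerizing protein Vasp and the filamin Flna. They are 10 of 23284 genes in the count table, picked by symbol with the difference between the fractions already known for some of them, so their values here are a description and not a separate test. All 10 had enough counts to be tested, as had 13300 genes in all. The cells were LSK cells (lineage-negative, Sca-1+, c-Kit+) of Hdc-GFP mice on the C57BL/6 background, animals that carry a green fluorescent reporter for histidine decarboxylase, the enzyme that makes histamine. They were sorted into Hdc-GFPhi (n = 4 libraries) and Hdc-GFPlo (n = 4 libraries), with 2000 cells in each library and no treatment named in the labels. The cell type label of Hdc-GFPhi replicate 4 reads GFP+ in place of GFPhi, and no label says whether the libraries came from separate animals, so a p-value here reflects only how these samples scatter, which could be technical. The sources used here give neither the age of the mice nor how the reporter was built.

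Actin filaments give a cell its cortex and its protrusions, and crosslinking proteins decide how they are packed. Fascin and the plastins bundle filaments tightly, as in filopodia. The α-actinins space them more loosely and filamin joins them at angles into a gel. Calponins and tropomyosins bind along the filament and govern access of myosin and other proteins, while proteins of the Ena/VASP family lengthen filaments at their growing ends. In blood cells Lcp1 (L-plastin) is the usual plastin, and stem and progenitor cells use this machinery to adhere and migrate within the marrow.

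Total counts were 16726179 to 23051277 per library, with 14856 to 15446 genes detected. The genes that define the sort were well expressed in every library: Kit at 748 to 1540 CPM (read counts scaled to a common depth with TMM factors), Ly6a, which encodes Sca-1, at 96.4 to 144 CPM and the pan-leukocyte gene Ptprc at 437 to 591 CPM. Hdc itself ranged over 10.1 to 14.5 CPM in Hdc-GFPhi against 10.9 to 13.4 in Hdc-GFPlo (adjusted p = 0.995). Each fraction held a library that stood apart. Hdc-GFPhi replicate 4, the library with the differing label, had the fewest genes detected (14856) and a score of 53.1 on the first principal component (28.2% of the variance), against -31.3 to 16.3 in the other 7. In Hdc-GFPlo replicate 3, the longest transcripts (at least 6547 bases) had a median deviation of -0.24 on the log2 scale from their mean over libraries, against -0.03 to 0.10 in the other 7, and the shortest (at most 1220.4 bases) had 0.39, against -0.15 to 0.19. Values without these libraries are given beside the results they touch.

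Among the 10 genes, 3 passed an adjusted p of 0.05 in the fit over all genes (edgeR quasi-likelihood test, Benjamini-Hochberg): Fscn1 was higher in Hdc-GFPhi, and Cnn3 and Tpm4 were lower. Of all tested genes, 0.947% passed, 0.241% higher and 0.707% lower. The same 3 genes were those whose fractions did not overlap, which was the case for 6.92% of all tested genes (3.38% higher in Hdc-GFPhi and 3.54% lower). Nothing is read from these shares, because the genes were chosen with this comparison known. The remaining 7 genes did not pass, and 6 of the 10 log2 fold changes were above 0 and 4 below. Their median was 0.07, against 0 over all tested genes.

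The stretches before the transcription starts of the 3 called genes, and of Cnn2, the paralog of Cnn3 that was not called, are shown so that called genes can be read beside a relative that was not called. Each runs 5′ to 3′ over the 250 bases before the RefSeq start (build GRCm38.p6, plus strand) with capitals for matches to 4 motifs searched on both strands: the CArG box of serum response factor, the TATA box (TATAAA), the GC box (GGGCGG) and the core of the cAMP response element (TGACG).
Fscn1, chr5:142960105-142960354: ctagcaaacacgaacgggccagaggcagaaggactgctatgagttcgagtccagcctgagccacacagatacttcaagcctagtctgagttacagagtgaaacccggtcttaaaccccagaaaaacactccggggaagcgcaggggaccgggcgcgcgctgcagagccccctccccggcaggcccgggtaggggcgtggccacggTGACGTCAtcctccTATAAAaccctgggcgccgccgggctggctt
Cnn3, chr3:121426291-121426540: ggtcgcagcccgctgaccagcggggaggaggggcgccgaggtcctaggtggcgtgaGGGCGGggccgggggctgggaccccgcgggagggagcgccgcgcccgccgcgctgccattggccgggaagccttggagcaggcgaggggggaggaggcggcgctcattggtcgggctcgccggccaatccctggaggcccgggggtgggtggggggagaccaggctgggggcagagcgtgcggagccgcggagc
Tpm4, chr8:72135038-72135287: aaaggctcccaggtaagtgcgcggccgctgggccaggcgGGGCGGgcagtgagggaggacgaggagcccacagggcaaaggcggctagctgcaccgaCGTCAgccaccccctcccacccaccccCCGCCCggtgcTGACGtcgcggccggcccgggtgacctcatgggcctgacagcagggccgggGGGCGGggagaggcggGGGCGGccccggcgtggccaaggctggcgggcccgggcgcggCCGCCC
Cnn2, chr10:79988350-79988599: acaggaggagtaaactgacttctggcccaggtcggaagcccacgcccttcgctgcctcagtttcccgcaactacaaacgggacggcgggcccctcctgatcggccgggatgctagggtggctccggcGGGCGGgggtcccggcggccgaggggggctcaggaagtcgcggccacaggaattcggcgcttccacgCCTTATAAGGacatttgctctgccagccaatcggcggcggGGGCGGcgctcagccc

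The Fscn1 stretch held a TATA box beginning 31 bases before the start and a cAMP response core on each strand, beginning 45 and 42 bases before it. The 2 matches overlap each other on opposite strands. The Cnn3 and Tpm4 stretches held no TATA box and were both 78.8% G and C, more than 98.4% of 26994 promoters compared (median 52.0%). Tpm4 had 5 GC boxes and 2 cAMP response cores, and Cnn3 had 1 GC box and no other match. Cnn2 had 2 GC boxes and was the only member with a CArG box, which began 56 bases before the start. Among promoters of the same length, 1.4% held a CArG box, 13.0% a TATA box, 32.9% a GC box and 17.8% a cAMP response core. A match describes letters in the sequence and not a bound site.

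Fscn1, the filament-bundling protein of filopodia and of dendritic cell processes, was the lowest of the 10 genes per length and was higher in Hdc-GFPhi. It was at 14.18, 13.95, 10.02 and 14.89 CPM in Hdc-GFPhi replicates 1 to 4 and at 4.56, 5.58, 4.32 and 6.09 CPM in Hdc-GFPlo replicates 1 to 4. The lowest Hdc-GFPhi library, replicate 3, was still above the highest Hdc-GFPlo library. The means were 13.3 ± 2.20 and 5.14 ± 0.84 CPM (SD, n = 4 each), a log2 fold change of 1.37 ± 0.20 (SE, 95% interval 0.93 to 1.81, adjusted p = 0.00599). These levels came from 78 to 334 counts per library. The other 2 fascins, Fscn2 and Fscn3, were nearly silent, with 6 and 5 counts over the Hdc-GFPhi libraries and 8 and 7 over the Hdc-GFPlo libraries, and were not tested.

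Cnn3, acidic calponin, was lower in Hdc-GFPhi. It was at 68.3, 55.8, 51.2 and 57.3 CPM in Hdc-GFPhi replicates 1 to 4 and at 199, 140, 159 and 134 CPM in Hdc-GFPlo replicates 1 to 4. Every Hdc-GFPlo library was far above every Hdc-GFPhi library, and Hdc-GFPlo replicate 1 was the highest. The means were 58.2 ± 7.24 and 158 ± 29.2 CPM (SD, n = 4 each), a log2 fold change of -1.44 ± 0.14 (SE, 95% interval -1.75 to -1.14, adjusted p = 3.73e-04). It ranked 6 by p among all tested genes.

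Cnn2, the calponin of non-muscle and blood cells, was at 361, 324, 308 and 314 CPM in Hdc-GFPhi replicates 1 to 4 and at 310, 303, 354 and 320 CPM in Hdc-GFPlo replicates 1 to 4. The fractions overlapped almost entirely. This gave a log2 fold change of 0.02 (95% interval -0.18 to 0.22, adjusted p = 0.967). Within a library there were 16.6 to 18.9 Cnn3 reads per 100 Cnn2 reads in the Hdc-GFPhi libraries and 41.9 to 64.1 in the Hdc-GFPlo libraries. The third calponin, Cnn1, which belongs to smooth muscle, summed to 27 counts over Hdc-GFPhi and 38 over Hdc-GFPlo and was not tested.

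Tpm4, a tropomyosin of non-muscle cells that is abundant in platelets, was at 92.1, 90.5, 71.5 and 76.2 CPM in Hdc-GFPhi replicates 1 to 4 and at 187, 157, 158 and 136 CPM in Hdc-GFPlo replicates 1 to 4. The fractions did not overlap. The means were 82.6 ± 10.3 and 160 ± 20.9 CPM (SD, n = 4 each), a log2 fold change of -0.95 ± 0.12 (SE, 95% interval -1.22 to -0.68, adjusted p = 0.00338). None of the other tropomyosin genes was called. Log2 fold changes were -0.12 for Tpm3 (adjusted p = 0.786), 0.10 for Tpm1 (0.84) and 0.24 for Tpm2 (0.728). Per 100 Tpm3 reads there were 31.9, 29.4, 20.3 and 20.1 Tpm4 reads in Hdc-GFPhi replicates 1 to 4. In Hdc-GFPlo replicates 1 to 4 there were 52.5, 47.8, 39.2 and 38.5. In both fractions this ratio was higher in replicates 1 and 2 than in replicates 3 and 4. With that split as a covariate the log2 fold change of Tpm4 was again -0.95 (edgeR adjusted p = 2.13e-04). Tropomyosin genes share sequence with each other and with pseudogenes, so their values are uncertain where reads could be split between copies.

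**Figure D1:**
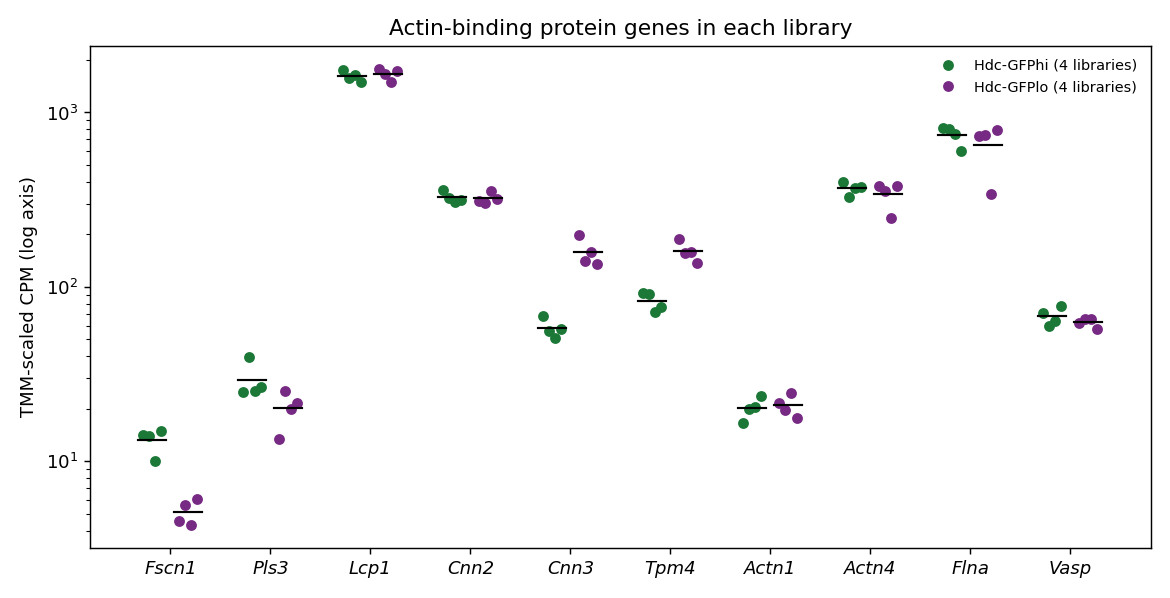
TMM-scaled CPM on a log axis for the 10 genes, 1 point per library (green Hdc-GFPhi, purple Hdc-GFPlo, 4 each), with a bar at the mean of each fraction. Fscn1, Cnn3 and Tpm4 show fractions that do not overlap, and in Flna 1 Hdc-GFPlo library, replicate 3, sits at 340 CPM below all the others.

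The plastins differed from each other in level and in spread. Pls3 (T-plastin), the plastin of non-haematopoietic tissues, was at 25.1, 39.8, 25.2 and 26.8 CPM in Hdc-GFPhi replicates 1 to 4 and at 13.5, 25.4, 19.99 and 21.65 CPM in Hdc-GFPlo replicates 1 to 4. Hdc-GFPhi replicate 2 was the highest library and Hdc-GFPlo replicate 1 the lowest, and Hdc-GFPlo replicate 2 reached into the Hdc-GFPhi range. The log2 fold change was 0.54 ± 0.21 (SE, 95% interval 0.08 to 0.99), which did not pass over all genes (adjusted p = 0.345). Leaving out the highest library, Hdc-GFPhi replicate 2, gave 0.35, and leaving out the lowest gave 0.38. Lcp1 (L-plastin) was at 1761, 1566, 1630 and 1489 CPM in Hdc-GFPhi replicates 1 to 4 and at 1781, 1670, 1487 and 1725 CPM in Hdc-GFPlo replicates 1 to 4. These overlapped, and the log2 fold change was -0.05 (95% interval -0.25 to 0.15, adjusted p = 0.917). There were 1.42 to 2.54 Pls3 reads per 100 Lcp1 reads in Hdc-GFPhi and 0.755 to 1.52 in Hdc-GFPlo, ranges that overlapped.

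Neither α-actinin was called. Actn1 was at 16.68, 20.02, 20.57 and 23.76 CPM in Hdc-GFPhi replicates 1 to 4 and at 21.5, 19.8, 24.8 and 17.7 CPM in Hdc-GFPlo replicates 1 to 4, and the log2 fold change was -0.05 (95% interval -0.39 to 0.30, adjusted p = 0.953). Actn4 was at 399, 329, 369 and 375 CPM in Hdc-GFPhi replicates 1 to 4 and at 380, 354, 250 and 378 CPM in Hdc-GFPlo replicates 1 to 4. Hdc-GFPlo replicate 3 was the lowest library, and the others overlapped. The log2 fold change of Actn4 was 0.11 (95% interval -0.17 to 0.40, adjusted p = 0.841) with that library and 0.00 without it. The muscle gene Actn2 ranged over 0.357 to 4.64 CPM in Hdc-GFPhi against 2.18 to 4.96 in Hdc-GFPlo (log2 fold change -0.70 ± 0.54 SE, adjusted p = 0.733).

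Flna, the large crosslinker that ties actin to integrins and other membrane proteins, varied most of the 10 among the Hdc-GFPlo libraries. It was at 812, 805, 753 and 598 CPM in Hdc-GFPhi replicates 1 to 4 and at 730, 739, 340 and 798 CPM in Hdc-GFPlo replicates 1 to 4. Apart from Hdc-GFPlo replicate 3 the fractions overlapped. The log2 fold change was 0.19 (95% interval -0.27 to 0.65, adjusted p = 0.839) and was -0.01 without that library. The Flna transcript has 8456 bases, which places it among the longest transcripts, whose median deviation in that library was -0.24 on the log2 scale. Flna itself was at 8.41 log2 CPM there, against 9.51, 9.53 and 9.64 in Hdc-GFPlo replicates 1, 2 and 4. Whether transcript length had a part in the low Flna value was not tested. With a trend on transcript length and GC content removed from each library, the log2 fold change of Flna was 0.10 ± 0.12 (SE).

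Vasp, which extends filaments at their barbed ends, was at 71.3, 59.4, 63.4 and 77.2 CPM in Hdc-GFPhi replicates 1 to 4 and at 62.1, 65.1, 65.4 and 57.5 CPM in Hdc-GFPlo replicates 1 to 4. The fractions overlapped, with a log2 fold change of 0.12 (95% interval -0.13 to 0.37, adjusted p = 0.806). Its paralog Evl, the Ena/VASP protein prominent in lymphoid cells, did differ. Evl was at 8.25, 7.37, 6.10 and 5.39 CPM in Hdc-GFPhi replicates 1 to 4 and at 19.4, 16.3, 13.9 and 13.4 CPM in Hdc-GFPlo replicates 1 to 4, with no overlap. The log2 fold change of Evl was -1.22 ± 0.20 (SE, adjusted p = 0.0106), and the call was lost when either Hdc-GFPhi replicate 3 (adjusted p = 0.0505) or replicate 1 of Hdc-GFPlo (0.0547) was left out. The third member of that family, Enah, summed to 60 counts over Hdc-GFPhi and 22 over Hdc-GFPlo and was not tested.

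**Figure D2:**
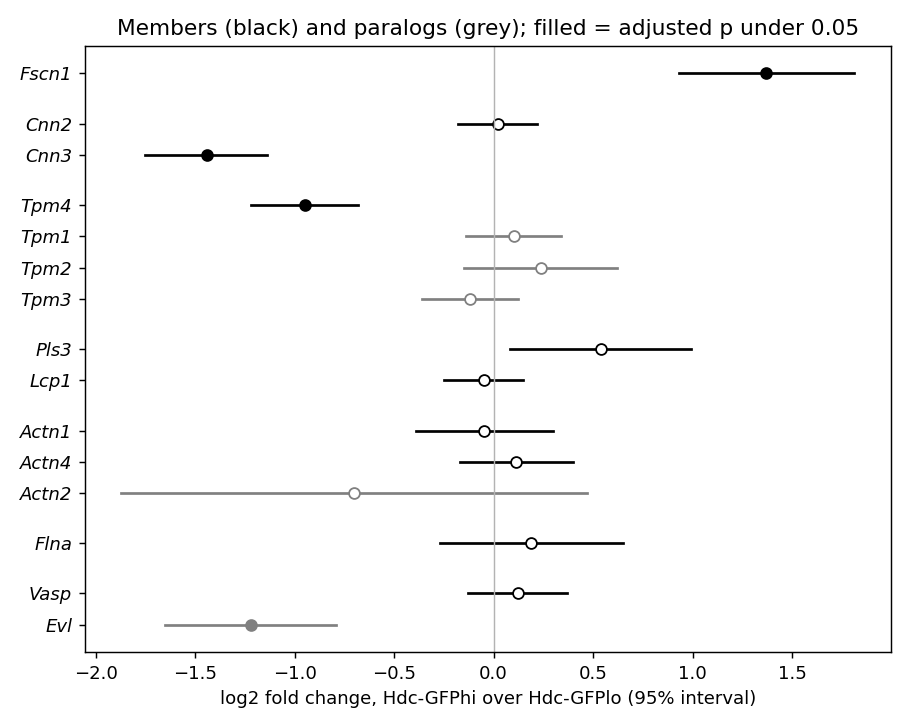
Log2 fold change with 95% interval for the 10 genes (black) and for 5 paralogs (grey), grouped by family, with filled points for an adjusted p under 0.05. In the calponin, tropomyosin and Ena/VASP families 1 gene was called (Cnn3, Tpm4 and Evl, all lower in Hdc-GFPhi) and its tested relatives were not.

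Counted per kilobase of the longest coding transcript, which assumes that isoform, Lcp1 was the highest and Fscn1 the lowest of the 10 in both fractions. In Hdc-GFPhi the order was Lcp1 (420 CPM per kb), Cnn2 (133), Actn4 (95), Flna (87.7), Tpm4 (38.8), Vasp (30.6), Cnn3 (28.4), Pls3 (9.01), Actn1 (5.42) and Fscn1 (4.96). The neighbours Actn4 and Flna, Tpm4 and Vasp, Vasp and Cnn3, and Actn1 and Fscn1 overlapped between libraries. In Hdc-GFPlo Cnn3 (77.1 CPM per kb) and Tpm4 (75.0) stood beside Flna (77.1) and Actn4 (87.8), and these 4 overlapped. Below them came Vasp (28.2), then Pls3 (6.21) and Actn1 (5.6), which overlapped, and Fscn1 (1.92), which lay below both. Cnn3 overlapped with Vasp in Hdc-GFPhi and was above it in every Hdc-GFPlo library.

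**Figure D3:**
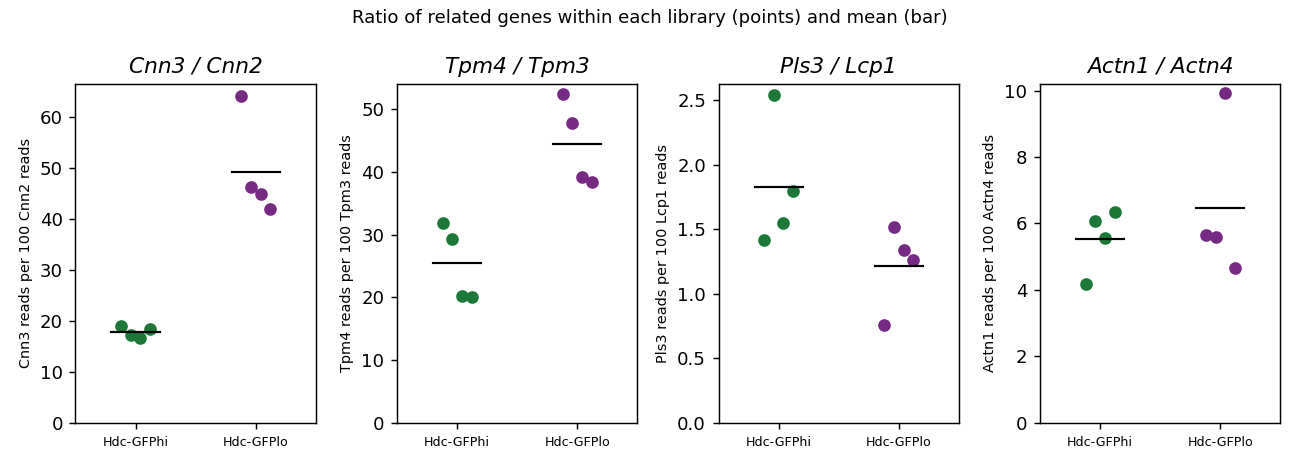
Reads of 1 gene per 100 reads of a related gene in each library (points, 4 per fraction) with the mean of each fraction as a bar, on axes from 0. The Cnn3 to Cnn2 ratio (16.6 to 18.9 against 41.9 to 64.1) and the Tpm4 to Tpm3 ratio (20.1 to 31.9 against 38.5 to 52.5) separate the fractions, and the Pls3 to Lcp1 and Actn1 to Actn4 ratios overlap.

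The genes whose log2 CPM followed a called member most closely over the 8 libraries, out of 10651 searched, are given as a description, since r over libraries mostly reflects the split between the fractions. For Cnn3 they were the monoamine transporter Slc18a1 (Pearson r = 0.994), the lymphoid terminal transferase Dntt (0.992) and the RNA-sensing receptor Tlr7 (0.990). For Tpm4 they were Tlr7 (0.993), the glycosyltransferase Galnt3 (0.992) and the lymphoid surface marker Ly6d (0.990). For Fscn1 they were Leprel2, a prolyl hydroxylase of collagen (0.983), the RNA-binding protein Igf2bp2 (0.977) and Zfand3 (0.974). Once the mean of each fraction was subtracted, the closest genes were different. They were Zfp954 (0.979), Zbtb2 (0.961) and the chaperone Hspa8 (0.957) for Cnn3, Noc4l (0.972), Creb3 (0.968) and Phlda3 (0.959) for Tpm4, and Tmem8b (0.973), Pdlim7 (0.946) and Scube3 (0.942) for Fscn1. None of these 9 genes was called between the fractions. All r values here are the highest of 10651 genes over only 8 libraries. Values this high can arise without a link between genes, which was not tested.

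Beyond the members, 124 tested genes of the actin machinery from 9 lists were examined. Evl was the 1 gene called lower and none was called higher, which is 0.806% against 0.947% of all tested genes. At an unadjusted p under 0.05 there were 24 of the 124, 9 higher and 15 lower. This is a larger share than the 10.9% of all tested genes (1449 of 13300), in lists written with earlier results known. DESeq2 called 3 higher (Inf2, Eps8l2 and Fhl1) and 3 lower (Evl, Marcks and Lims1), and limma voom called 0 higher and 2 lower (Evl and Lims1). The median log2 fold change of the 124 genes was -0.01, with 59 above 0 and 65 below.

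The actins, and the proteins that bind actin monomers or depolymerize filaments, had 15 tested genes with a median of -0.19, none called by edgeR, DESeq2 or voom and 1 with an unadjusted p under 0.05. β-actin (Actb) averaged 1600 ± 247 CPM in Hdc-GFPhi against 1900 ± 183 in Hdc-GFPlo (SD, n = 4 each, edgeR adjusted p = 0.488). The monomer-binding protein Twf1 was at -0.33 on the log2 scale (adjusted p = 0.394). The Arp2/3 complex, which nucleates branched filaments, and its activators had 21 tested genes with a median of -0.07. None was called by any of the 3 tools and 6 had an unadjusted p under 0.05, all with lower values in Hdc-GFPhi, among them Wipf1 (-0.37, adjusted p = 0.264) and Abi1 (-0.36, adjusted p = 0.291). Formins, which nucleate straight filaments, had 10 tested genes with a median of 0.08, none called by edgeR or voom and 1 with an unadjusted p under 0.05. That gene was Inf2, at 34.7 ± 2.77 against 26.2 ± 1.10 CPM (SD, n = 4 each), or 0.41 on the log2 scale (adjusted p = 0.162, and called higher by DESeq2), and Diap3 had 0.29 (adjusted p = 0.531).

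Capping, severing and coronin proteins had 19 tested genes with a median of 0.02, none called by edgeR or voom and 5 with an unadjusted p under 0.05. Eps8l2, a relative of the capping and bundling protein Eps8, was at 0.71 on the log2 scale (adjusted p = 0.169, but called by DESeq2 and without Hdc-GFPlo replicate 2), and the capping subunit Capza2 had -0.31 (adjusted p = 0.211). Other crosslinkers and linkers had 19 tested genes with a median of 0.04, none called by edgeR or voom and 4 with an unadjusted p under 0.05. Marcks, a filament-binding substrate of protein kinase C, was at -0.67 on the log2 scale (adjusted p = 0.162, and called lower by DESeq2), and the scaffold palladin (Palld) had 0.86 (adjusted p = 0.236). Non-muscle myosin and its regulators had 11 tested genes with a median of -0.03, none called by the 3 tools and 1 with an unadjusted p under 0.05. That gene was Rhoa, at -0.28 on the log2 scale with fractions that did not overlap (adjusted p = 0.368). The myosin heavy chain Myh10 had 0.49, with fractions that overlapped (adjusted p = 0.555).

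Linkers of actin to integrins and membranes had 18 tested genes with a median of 0.01, none called by edgeR and 4 with an unadjusted p under 0.05. Lims1 (PINCH1), the adaptor of integrin-linked kinase, ranged over 138 to 178 CPM in Hdc-GFPhi against 185 to 264 in Hdc-GFPlo, without overlap. Its log2 fold change was -0.51 (adjusted p = 0.0916 with edgeR, and called lower by DESeq2 and voom), and ezrin (Ezr) had -0.24 (adjusted p = 0.393). Serum response factor, its coactivators and target genes, the classical regulators of actin genes, had 10 tested genes with a median of 0.08, none called by edgeR or voom and 1 with an unadjusted p under 0.05. That gene was the LIM protein Fhl1, with 0.82 (adjusted p = 0.116, and called higher by DESeq2), and Acta2 had -1.0 ± 0.57 (SE, adjusted p = 0.594) at under 1 CPM in each fraction on average.

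**Figure D4:**
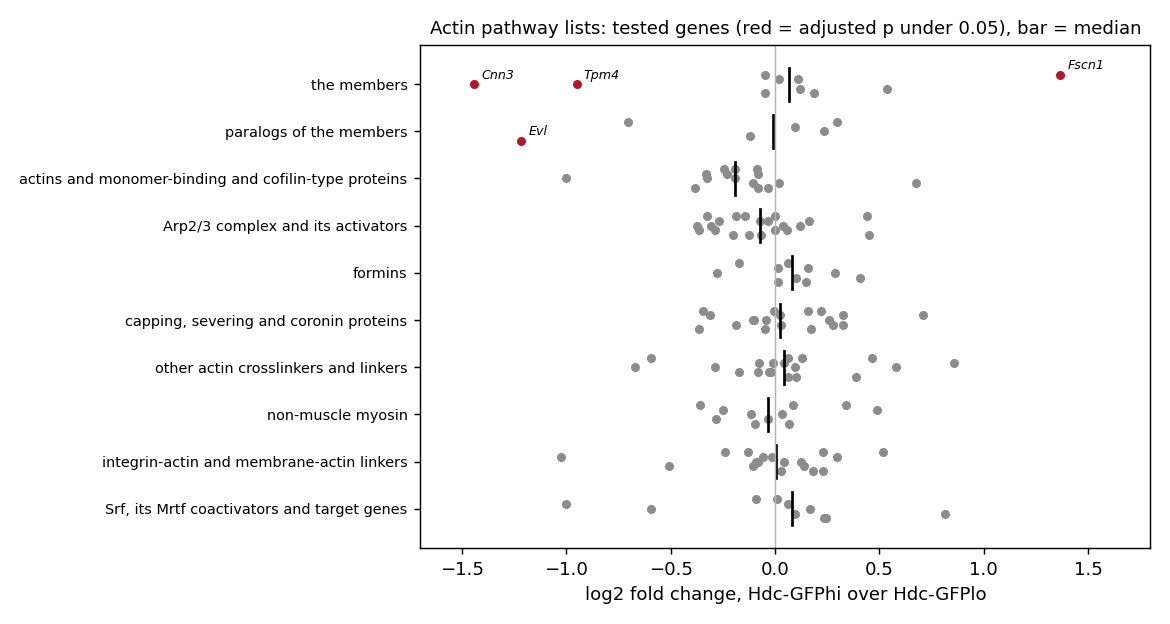
Log2 fold change of each tested gene in the 10 members and in 9 lists of the actin machinery (points), red for an adjusted p under 0.05, with the list median as a bar. The called genes are Fscn1, Cnn3 and Tpm4 among the members and Evl among the paralogs, and the other list medians lie between -0.19 and 0.08.

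Markers of several cell types also differed between the fractions, and in sorted bulk cells fewer cells of a type and less RNA per cell cannot be told apart. Of 15 lymphoid progenitor genes found of 16 listed, 10 were called lower in Hdc-GFPhi and none higher, with a median of -2.15, and their summed level was 1520 to 1960 CPM in Hdc-GFPhi and 3130 to 4210 CPM in Hdc-GFPlo. None of them was at 0 in all libraries, and all 15 had an unadjusted p under 0.05. DESeq2 called 14 of them lower and voom 13. Dntt (-2.32, adjusted p = 3.73e-04), Il7r (-2.73, adjusted p = 3.73e-04), Vpreb1 (-3.87, adjusted p = 3.73e-04) and Rag2 (-2.13, adjusted p = 9.63e-04) had the smallest p-values among them. This is the direction of Cnn3, Tpm4 and Evl, and the part of lymphoid-primed cells in those 3 differences was not tested. Monocyte and dendritic cell genes had 4 of 12 called lower and a median of -1.24, with summed levels of 189 to 290 against 327 to 388 CPM. The 4 were Irf8 (-1.29), Clec12a (-1.64), Ly6c2 (-1.17) and Ccr2 (-1.36), the last of which was lost in 6 of 8 fits with 1 library left out (adjusted p up to 0.112). Of the 12 genes 10 were below 0 and 2 above. An unadjusted p under 0.05 was found for 7, all lower, and DESeq2 called 7 lower and voom 5. The antigen-presentation genes Cd74 (0.05), H2-Aa (0.12) and H2-Ab1 (-0.13) were near 0 and not called. Granulocyte genes had 0 of 12 called by edgeR, 3 with an unadjusted p under 0.05, 1 called lower by DESeq2 and by voom, and a median of -0.44 (2100 to 2730 against 2510 to 3350 CPM). In that list Ctsg had -0.88 (adjusted p = 0.0596) and Mmp8 -0.50 (adjusted p = 0.225).

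In the other direction, with Fscn1, all 16 stem cell genes were above 0, with a median of 0.58 and summed levels of 2680 to 3090 against 1880 to 2230 CPM. Of the 16, 2 were called higher by edgeR, 11 by DESeq2 and 9 by voom, and 11 had an unadjusted p under 0.05. Among those called by edgeR was Esam, an adhesion molecule of stem cells and endothelium (0.88, adjusted p = 0.0253). The edgeR call on Esam was lost in 5 of 8 fits with 1 library left out (adjusted p up to 0.0929). Megakaryocyte and platelet genes, whose cells are rich in Flna, Tpm4 and Actn1, had a median of 0.45 over 15 tested genes. Their summed level was 1550 to 1630 against 1010 to 1190 CPM, and Gp6 was at 0 in every library. Of the 15, 1 was called higher by edgeR, 3 by DESeq2 and 2 by voom, and 7 had an unadjusted p under 0.05, all higher. The platelet factor gene Pf4 was at 3.55 to 14 CPM against 3.03 to 10.2 CPM. Log2 fold changes of the 3 genes named with these cells were 0.19 for Flna, -0.05 for Actn1 and -0.95 for Tpm4. The part of stem cells, megakaryocytes or platelets in the Fscn1 and Tpm4 differences was not tested. Among 9 surface genes of LSK cells Cd48 was called lower (-0.71, adjusted p = 0.0228; list median -0.15, summed 4990 to 5440 against 4680 to 5870 CPM). The Cd48 call was lost in 4 of 8 fits with 1 library left out (adjusted p up to 0.0781).

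Endothelial and stromal cells are known to express Fscn1, Cnn3 and Pls3. Of 16 listed genes 10 were tested, and none was called by edgeR, DESeq2 or voom and none had an unadjusted p under 0.05 (median -0.11, summed 244 to 287 against 253 to 337 CPM). The endothelial cadherin Cdh5 summed to 12 counts over Hdc-GFPhi and 15 over Hdc-GFPlo, Col1a1 had 28 and 29 and Lepr had 1 and 3. Other genes of this list were clearly expressed. Mean levels in Hdc-GFPhi and Hdc-GFPlo were 126 and 142 CPM for Pecam1 and 72.1 and 90.7 CPM for Pdgfrb. For Emcn the means were 48.2 and 40.9 CPM. Vcam1 was at 13.9 CPM or more in every Hdc-GFPhi library and at 14.9 CPM or more in every Hdc-GFPlo library. Emcn was at 0.24 (adjusted p = 0.583) and Cxcl12 at 0.75 (adjusted p = 0.649) on the log2 scale. Erythroid genes had none of 8 called by the 3 tools, 3 with an unadjusted p under 0.05 and a median of -0.17 (1820 to 2460 against 1690 to 2270 CPM), with Tfrc at -0.50 (adjusted p = 0.313) and Car1 at -0.74 (adjusted p = 0.36). The globin genes Hba-a1, Hba-a2 and Hbb-b2 are listed at 0 in every library.

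The calls on Fscn1, Cnn3 and Tpm4 held in all 20 alternative fits. With each library left out in turn, the log2 fold change ranged from 1.31 to 1.49 for Fscn1 (adjusted p up to 0.0319), from -1.53 to -1.31 for Cnn3 (up to 0.0044) and from -1.02 to -0.86 for Tpm4 (up to 0.0207). In the order Fscn1, Cnn3 and Tpm4 the values were 1.31, -1.42 and -0.94 without Hdc-GFPlo replicate 3, and 1.31, -1.43 and -0.91 without Hdc-GFPhi replicate 4. With both of these libraries omitted they were 1.25 (adjusted p = 0.0367), -1.42 (0.0053) and -0.90 (0.0183). None of the other 7 genes was called in any of the 20 fits. The smallest adjusted p among them was 0.113, for Pls3 with the replicate number as a block.

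**Figure D5:**
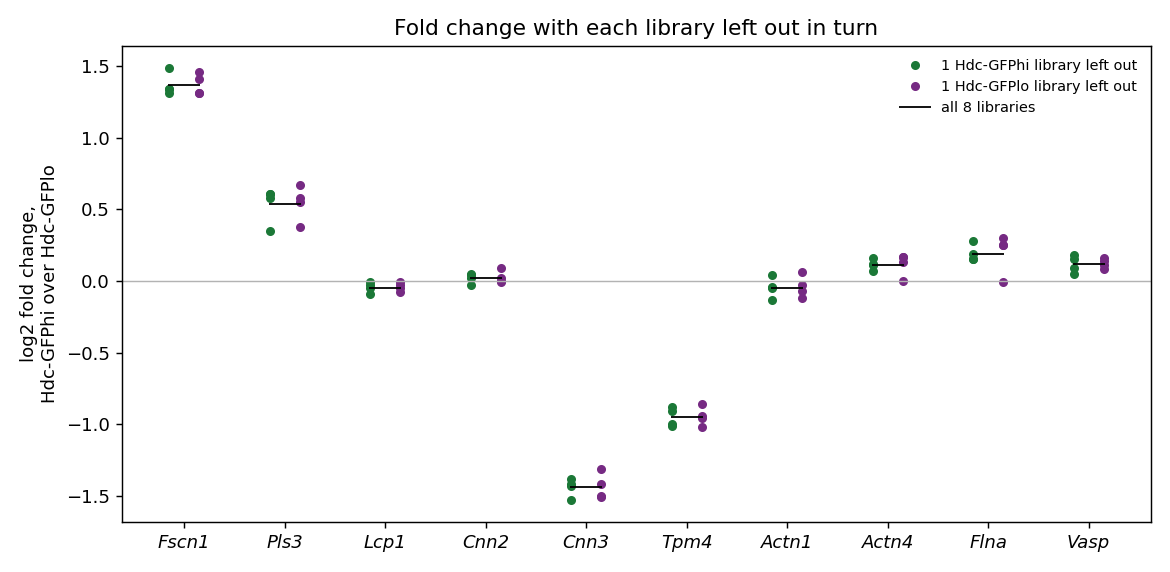
Log2 fold change of each gene with all 8 libraries (black bar) and with 1 library left out (green where an Hdc-GFPhi library was left out, purple where an Hdc-GFPlo library was). Fscn1, Cnn3 and Tpm4 stay far from 0 in each of these fits, Pls3 ranges from 0.35 to 0.67, and Flna drops to -0.01 when Hdc-GFPlo replicate 3 is left out.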

How the data were processed

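RNA from 2000 sorted cells per library was amplified as cDNA (SMARTer) and sequenced as Nextera XT libraries, per the labels' protocols. The deposited values are raw read counts per gene symbol, made by the authors with bcl2fastq 1.8.4, Bowtie2, TopHat2 2.04 and HTSeq 0.6.1 on build mm9, per the submitters' processing notes. Annotation, strand setting and treatment of shared reads were not given in the sources used here. Hence overlapping, antisense and near-identical genes cannot be told apart. The promoter sequences come from RefSeq on GRCm38.p6 (10 of 10 genes matched) and transcript lengths from GENCODE M21 (98.8% of tested genes). Groups and replicate numbers come from sample titles.

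Genes were kept with filterByExpr (13300 of 23284), scaled by TMM and tested with edgeR 4.0.16 (robust glmQLFit, glmQLFTest) in R 4.3.3, with no covariate, Benjamini-Hochberg adjustment over all tested genes and a threshold of 0.05. A gene is called when it passes. CPM are TMM-scaled, and log2 fold changes are Hdc-GFPhi over Hdc-GFPlo. Correlations used log2 CPM with a prior of 2 counts. In simulated data (13178 genes), 20% of genes changed by 0.5 were recovered, 79.6% of those changed by 1, 89.6% by 2 and 98% by 4 on the log2 scale, with 11 calls among unchanged genes. Alternatives were other scalings and filters, DESeq2 1.42.0, limma 3.58.1 voom, the non-robust fit, a replicate block, a split of replicates as a covariate, leaving out libraries and, added with the data in view, removal of a length and GC trend.

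The members and all gene lists were chosen with earlier results of these data known. Named genes are the members, paralogs with a mean of at least 50 counts, up to 4 called genes per list (otherwise the 2 with the smallest p), and the 3 genes most correlated with each called member. Untested paralogs, Pf4, Cdh5, Col1a1, Lepr, the globins and the genes in other alternatives' calls were added after their values were seen. So were Pecam1, Pdgfrb, Vcam1, Cd74, H2-Aa and H2-Ab1. Some genes that this rule would name are not reported here. The replicates of a fraction differed by more than sampling noise (chi-square per degree of freedom at least 13.8).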

Additional observations from a re-analysis of the deposited data

Results flagged for a closer look

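Pls3 in Hdc-GFPhi replicate 2, at 39.8 CPM, lay far above the other 3 libraries of its fraction, the nearest of which was at 26.8 CPM. The gap was 0.882 of the range of the 4 libraries. Flna in Hdc-GFPlo replicate 3, at 340 CPM, lay far below the other 3, the nearest at 730 CPM, with a gap of 0.852 of the range. Chance marks about 1 in 20 groups in this way, and 20 groups were examined.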

How the results depend on the processing

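Of the members, 1 was called higher and 2 lower in every fit. The number of genes called over all genes (126, with 32 higher and 94 lower) rose to 404 (163 and 241) with the DESeq2 Wald test, 278 (99 and 179) with voom, 275 (84 and 191) with a covariate for replicates 1 and 2 against 3 and 4, and 269 (94 and 175) with the length and GC trend removed. With the replicate number as a block it was 224 (84 higher), which changed no call on a member; the log2 fold changes of Fscn1, Cnn3 and Tpm4 were then 1.37, -1.43 and -0.95. Whether the numbers pair the samples was not settled by the check made. Same-numbered libraries had correlations of their deviations of 0.257, 0.347, 0.076 and 0.1. The best correlations with another number were 0.138, 0.062, 0.212 and 0.322. Replicates 1 and 2 thus correlated better with their own number, and replicates 3 and 4 with another. With 1 library left out, the calls ranged from 52 to 146 (8 to 41 higher and 44 to 105 lower), lowest without Hdc-GFPlo replicate 1. Without Hdc-GFPhi replicate 3 they were 68 (14 and 54), and genes called higher numbered 13 without Hdc-GFPhi replicate 1, 18 without its replicate 2 and 15 without Hdc-GFPlo replicate 4. Of the 124 pathway genes, those called higher and lower went from 0 and 1 to 3 and 3 with DESeq2, 1 and 3 with the covariate, and 0 and 2 with voom, with the block and with the trend removed. With 1 library left out they ranged from 0 to 1 in each direction: Eps8l2 was called without Hdc-GFPlo replicate 2, and Evl was not called without Hdc-GFPhi replicate 3 or without replicate 1 of Hdc-GFPlo. Members near 0 changed sign: with 1 library left out, Cnn2 ranged from -0.03 to 0.09, Actn1 from -0.13 to 0.06 and Flna from -0.01 (without Hdc-GFPlo replicate 3) to 0.3. Cnn2 was at -0.02 with the trend removed. Actn4 was at -0.01 with replicate 4 of Hdc-GFPhi and replicate 3 of Hdc-GFPlo both omitted. The cause of these changes was not tested. Fscn1 had the fewest counts of the members, 78 in its lowest library.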
